A study of Sus scrofa with 8 samples.

Results

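Solute carriers are membrane proteins that move amino acids, sugars, ions, metals, nucleotides and metabolites across the plasma membrane and the membranes of organelles. The genes are grouped in numbered families whose symbols begin with SLC. In skeletal muscle most members of the SLC25 family span the inner mitochondrial membrane and exchange ATP, phosphate, carnitine esters and metabolites with the cytosol. Other families take up amino acids for protein synthesis and glucose for contraction, set ion gradients and pH, or load the Golgi with nucleotide sugars. Glucocorticoids are known to promote muscle protein breakdown and to oppose insulin-stimulated glucose uptake.

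The 82 genes described here were those with an SLC symbol on the array and a mean log2 level above 5.27 over the 8 arrays, with 1 probe set per gene, that of highest mean level. SLC2A4 and SLC16A3 were left out by the rule. The array carried 118 other SLC symbols on 172 probe sets, and 36 of them lay below the level. The gene nearest above the level was SLC7A4 (5.30) and the gene nearest below it was SLC39A2 (5.17). By role the 82 genes comprised 20 members of the SLC25 family, 9 amino acid carriers, 11 sugar carriers, 7 ion carriers, 10 metal carriers and 22 other carriers. The SLC25 members include SLC25A17, a carrier of peroxisomes, and SLC25A46, a protein of the outer mitochondrial membrane. The last 3 symbols belong to proteins that are not carriers. SLC9A3R1 and SLC9A3R2 are scaffold proteins, and SLC2A4RG is a regulator of the SLC2A4 gene. All genes tested numbered 5406.

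The RNA came from the biceps femoris of female domestic piglets kept under isoflurane sedation on a ventilator for 5 days, a porcine intensive care model of acute quadriplegic myopathy, a limb muscle weakness, and all 8 samples carry that disease label. The 4 control arrays are labelled as sedation and ventilation, and the 4 corticosteroid arrays as corticosteroid, which the protocol gives as bolus hydrocortisone over the 5 days. The controls' protocol, unlike their source label, also lists endotoxin from E. coli (36 µg/kg/h for 1 h), and the treated animals' protocol lists none. Both protocols list glucose infusion, streptomycin, benzylpenicillin and morphine with ketamine when needed. The series design adds the neuromuscular blocker pancuronium at 0.1 mg/kg/h and does not say to which animals. Mean body weights were 25.5 kg in the control protocol, for 4 piglets, and 26.4 kg in the treated protocol, for 8 piglets, and age is not given. If the controls did receive endotoxin, its absence in the treated group and hydrocortisone cannot be told apart. It is not stated whether the arrays of a group are from different animals, and the tests then reflect only how these samples scatter, which can be technical.

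The muscle genes creatine kinase (CKM) and titin (TTN) were at log2 levels of 13.86 to 14.07 and 13.45 to 13.73 on the 8 arrays. The corticosteroid columns of the deposited table were in another row order than the control columns and were re-assigned to the probe sets by the text of their IDs. This moved 39.1% of all probe sets and those of 31 of the 82 solute carrier genes. Of the genes described below these include SLC25A3, SLC25A36, SLC3A2, SLC2A1, SLC2A3, SLC2A12, SLC26A6, SLC31A1, SLC35B1, SLC35D2, SLC35F5 and SLC2A4RG. SLC1A5, SLC6A8, SLC25A12, SLC25A20, SLC25A39, SLC29A1, SLC39A7 and SLC44A2 are also among them. Over these 31 genes the group means correlated across genes with r = 0.97 after re-assignment and 0.12 as deposited. This is a description over genes of the same arrays. Control replicate 2 and corticosteroid replicate 4 were most often the highest of the 8 arrays, for 21.1% and 21.3% of all genes, and most often the lowest, for 23.6% and 18.6%. For several carriers below, the difference is also given without 1 of these arrays.

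Solute carrier genes passed neither the adjusted nor the unadjusted threshold more often than genes in general. In limma, 0 of the 82 genes had an adjusted p under 0.05, and 0.00% of the 5406 genes did. The smallest adjusted p among the carriers was 0.479. An unadjusted p under 0.05 was found for 5 carriers (6.10%), against 9.17% of all genes tested. Of the 5, 2 had higher means with corticosteroid (5.27% of all genes) and 3 had lower means (3.90% of all genes). The control and corticosteroid arrays did not overlap for 2 of the 82 genes, against 5.42% of all genes. Both had lower means with corticosteroid, as 2.02% of all genes did without overlap, and 3.40% were higher without overlap. The median log2 difference, corticosteroid minus control, was -0.01 over the 82 genes and 0.03 over all genes tested, with 39 of 82 means higher against 54.0% of all genes. The median of the 82 genes was 0.01 when each array was centred on its median. Means differed by over 0.5 log2 units for 12 of the 82 genes, against 16.4% of all genes. The 95% interval of the difference lay inside -1 to 1 log2 units for 61 of the 82 genes, so a change of 2-fold or more lay outside the interval of each of these. For the other 21 genes the interval reached such a change. These small counts moved with single arrays, as did the shares over all probe sets. The count at an unadjusted p under 0.05 was 11 without control replicate 1 (13.4% of the 82, against 12.4% of all probe sets; 5 higher, 6 lower). It was 2 without control replicate 3 or corticosteroid replicate 3 (0 higher, 2 lower; 6.28% and 7.14% of all probe sets) and 3 without corticosteroid replicate 4 (1 higher; 6.21% of all probe sets). The genes higher at that level numbered 4 without control replicate 4 or corticosteroid replicate 1. The genes without overlap numbered 8 without control replicate 1 or corticosteroid replicate 1 (12.6% and 11.9% of all probe sets), 4 without control replicate 2 or corticosteroid replicate 2 (8.77% and 8.75%) and 9 without control replicate 4 (10.03%). Fewer arrays leave less room for overlap.

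**Figure D1:**
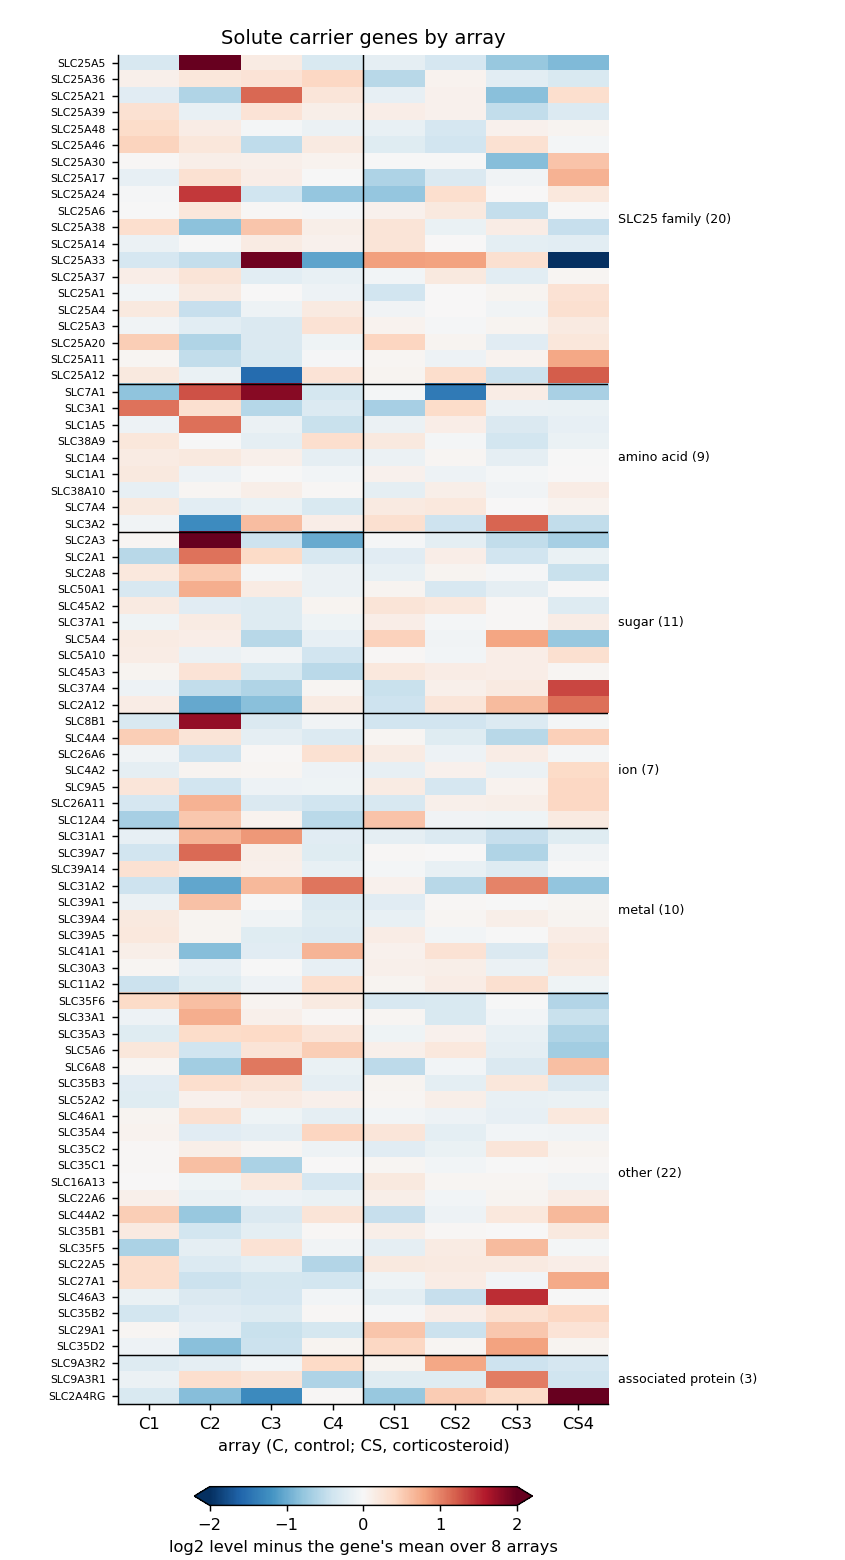
Log2 level of each of the 82 genes (rows, grouped by role and ordered within a role by the group difference) on each of the 8 arrays (columns), minus the gene's mean over the 8 arrays, in colour. In the rows of SLC25A5, SLC2A3 and SLC8B1 the darkest cell is that of control replicate 2 (C2), and in no role do all rows change colour at the line between the groups.

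The medians of the role groups lay on both sides of zero. The median log2 difference was -0.10 for the SLC25 family, with 15 of 20 means lower, and -0.14 for the amino acid carriers, with 7 of 9 lower. It was 0.13 for the sugar carriers, with 7 of 11 means higher, and 0.10 for the ion carriers, with 5 of 7 higher. The ion median was -0.02 without control array 2 and corticosteroid array 4. Metal carriers had a median of -0.03 and the other carriers 0.05. These medians describe the lists and were not tested. The median centred level of the sugar carriers ran from -0.26 to 0.17 on control arrays and from 0.00 to 0.05 on corticosteroid arrays, and for the amino acid carriers from -0.18 to 0.17 and from -0.14 to 0.03. In each role group the control and corticosteroid arrays overlapped.

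**Figure D2:**
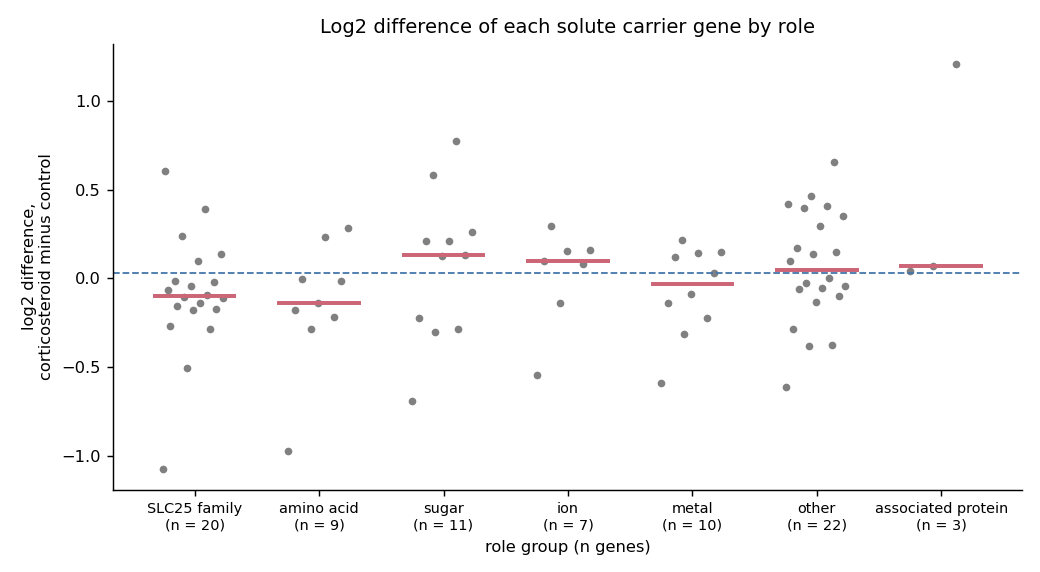
Log2 difference, corticosteroid minus control, of each gene (points) by role, with the median of each role as a red line. The dashed line is the median of all genes tested (0.03); in each group but the associated proteins the points lie on both sides of zero, and the lowest point is SLC25A5 (-1.07).

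Carriers of the SLC25 family exchange solutes of mitochondria with the cytosol. The muscle adenine nucleotide translocase SLC25A4, which exports ATP for ADP, had log2 levels of 12.56, 11.90, 12.26 and 12.55 on control replicates 1 to 4 and of 12.30, 12.37, 12.30 and 12.69 on corticosteroid replicates 1 to 4. The difference was 0.10 (SE 0.17, 95% interval -0.28 to 0.48) and turned to -0.04 without control replicate 2. Leaving out corticosteroid replicate 4 gave 0.01, and leaving out control replicate 1 or 4 gave 0.18. The phosphate carrier SLC25A3, which supplies phosphate for ATP synthesis, ran from 12.43 to 13.00 in controls and from 12.69 to 12.90 with corticosteroid, a difference of 0.14 (SE 0.14) that was 0.07 without control replicate 3 and 0.26 without control replicate 4. For both genes the interval excludes a 2-fold change.

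SLC25A36, a carrier of pyrimidine nucleotides into mitochondria, had the smallest p of the family. Its log2 levels were 6.24, 6.37, 6.41 and 6.56 on control replicates 1 to 4 and 5.58, 6.21, 5.93 and 5.84 on corticosteroid replicates 1 to 4. All corticosteroid arrays lay below all control arrays, although corticosteroid replicate 2 and control replicate 1 nearly met. The difference was -0.50 (SE 0.16, unadjusted p = 0.0124, adjusted p = 0.479 in limma), and it ran from -0.61 to -0.40 when single arrays were left out. Its row is among those re-assigned, and as deposited the difference was 1.53. The related pyrimidine nucleotide carrier SLC25A33 varied widely within both groups, from 6.12 to 9.13 in controls and from 5.15 to 7.99 with corticosteroid, with a difference of -0.04 (SE 0.76).

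SLC25A5, the adenine nucleotide translocase of proliferating cells, had the lowest difference of all 82 genes, and it rested largely on 1 array. Its levels were 7.32, 10.25, 7.80 and 7.33 on control replicates 1 to 4 and 7.46, 7.30, 6.88 and 6.76 on corticosteroid replicates 1 to 4. Control replicate 2 stood 2.44 log2 units above every other array, and the remaining control and corticosteroid arrays overlapped. The difference was -1.07 (SE 0.59, adjusted p = 0.567 in limma) with all arrays and -0.38 without control replicate 2. The third translocase, SLC25A6, had group means of 11.82 ± 0.12 and 11.72 ± 0.30 (SD, n = 4 each).

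The malate-aspartate shuttle brings reducing equivalents from glycolysis into mitochondria. Its oxoglutarate carrier SLC25A11 had levels of 8.81, 8.29, 8.46 and 8.75 in controls and 8.81, 8.68, 8.84 and 9.54 with corticosteroid, a difference of 0.39 (SE 0.23, adjusted p = 0.59 in limma). It was 0.20 without corticosteroid replicate 4, the highest array. The aspartate-glutamate carrier SLC25A12, chosen for description after its values were seen, differed by 0.60 (SE 0.45), and by 0.19 to 0.85 when single arrays were left out. Neither passed the test. Other carriers of the family, also described after their values were seen, were the glycine carrier SLC25A38, which feeds haem synthesis, at -0.10 (SE 0.31), the mitochondrial glutathione carrier SLC25A39 at -0.27 (SE 0.20) and the iron carrier SLC25A37 at -0.02 (SE 0.16). A second probe set of SLC25A37 differed by 0.27 (SE 0.17), in the other direction. The citrate carrier SLC25A1 differed by -0.01 (SE 0.18), with levels of 7.04 to 7.31 in controls and 6.75 to 7.43 with corticosteroid.

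Of carriers for fatty acid use, the carnitine-acylcarnitine carrier SLC25A20 differed by 0.24 (SE 0.26), the plasma membrane carnitine carrier SLC22A5 by 0.35 (SE 0.19) and the fatty acid transport protein SLC27A1 by 0.40 (SE 0.24). SLC25A20 differed by 0.08 without control replicate 2, and SLC27A1 by 0.21 without corticosteroid replicate 4. SLC22A5 had levels of 6.31, 5.67, 5.76 and 5.37 in controls and of 6.15, 6.14, 6.13 and 6.09 with corticosteroid. Its corticosteroid arrays were nearly equal, and control replicate 1 lay above all of them. The difference was 0.53 without control replicate 1 and 0.21 without control replicate 4.

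Amino acid carriers supply the fibre with substrates for protein synthesis and signal amino acid supply to growth pathways. None of the 9 had an unadjusted p under 0.05, against 9.17% of all genes tested. SLC7A1, which takes up arginine and lysine, had levels of 5.59, 7.67, 8.22 and 6.05 in controls and 6.36, 4.98, 6.54 and 5.75 with corticosteroid. Control replicates 2 and 3 were high, and the other control arrays lay among the corticosteroid arrays. The difference was -0.97 (SE 0.59, adjusted p = 0.592 in limma), or -0.53 without control replicate 3. SLC3A2, the heavy chain that brings several amino acid exchangers to the cell surface, had levels of 8.44, 7.25, 9.12 and 8.64 in controls and 8.83, 8.09, 9.67 and 8.01 with corticosteroid. The difference of 0.28 (SE 0.46) turned to -0.09 without control replicate 2 and to -0.06 without corticosteroid replicate 3.

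SLC38A9, a lysosomal arginine sensor upstream of mTORC1, differed by -0.18 (SE 0.20), with levels of 8.16 to 8.67 in controls and 7.96 to 8.54 with corticosteroid. A second probe set of SLC38A9 differed by -0.62 (SE 0.21, unadjusted p = 0.015, adjusted p = 0.479 in limma), so the probe sets of this gene gave different sizes in the same direction. The first ran from -0.27 to -0.08 when single arrays were left out. The glutamine carrier SLC1A5 stood at 9.01 on control replicate 2 and from 7.47 to 8.05 on the other arrays, and its difference of -0.22 (SE 0.31) became 0.11 without that array. SLC1A4, a carrier of alanine, serine and cysteine, differed by -0.14 (SE 0.14), or -0.22 without control replicate 4, and SLC7A4 by 0.23 (SE 0.14). The control mean of SLC7A4 (5.18) lay below the level of 5.27, which the gene passed through its corticosteroid arrays. SLC38A2, SLC7A5 and SLC16A1, set to be named whatever their result, had no probe set under that symbol alone and were not analysed.

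Sugar carriers move hexoses into the fibre or between its compartments. None of the 11 had an unadjusted p under 0.05, against 9.17% of all genes tested. SLC2A12, a glucose transporter of muscle and fat also known as GLUT12, had levels of 6.40, 5.22, 5.41 and 6.42 in controls and 5.84, 6.49, 6.88 and 7.35 with corticosteroid. Control replicates 2 and 3 were low, corticosteroid replicate 4 was highest, and the groups overlapped. The difference was 0.78 (SE 0.38, adjusted p = 0.543 in limma) and ran from 0.54 to 1.04 when single arrays were left out. SLC37A4, which carries glucose 6-phosphate into the endoplasmic reticulum, differed by 0.58 (SE 0.35) and by 0.23 without corticosteroid replicate 4, whose level of 9.12 was the highest of the 8. A second probe set of SLC37A4 differed by 0.40 (SE 0.38).

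The glucose transporter SLC2A3 (GLUT3), known from neurons and leukocytes, had levels of 6.58, 9.30, 6.13 and 5.53 in controls and 6.52, 6.35, 6.04 and 5.88 with corticosteroid. Control replicate 2 lay 2.72 log2 units above every other array. The difference was -0.69 (SE 0.68) with all arrays and 0.12 without that array, a turn in direction. SLC2A1 (GLUT1), the basal glucose transporter of many cell types, had levels of 5.36, 6.99, 6.30 and 5.60 in controls and 5.69, 6.04, 5.53 and 5.79 with corticosteroid. Its difference of -0.30 (SE 0.32) became 0.01 without control replicate 2. SLC2A8 (GLUT8), an intracellular hexose transporter, differed by -0.29 (SE 0.19), or -0.16 without control replicate 2 and -0.18 without corticosteroid replicate 4.

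**Figure D3:**
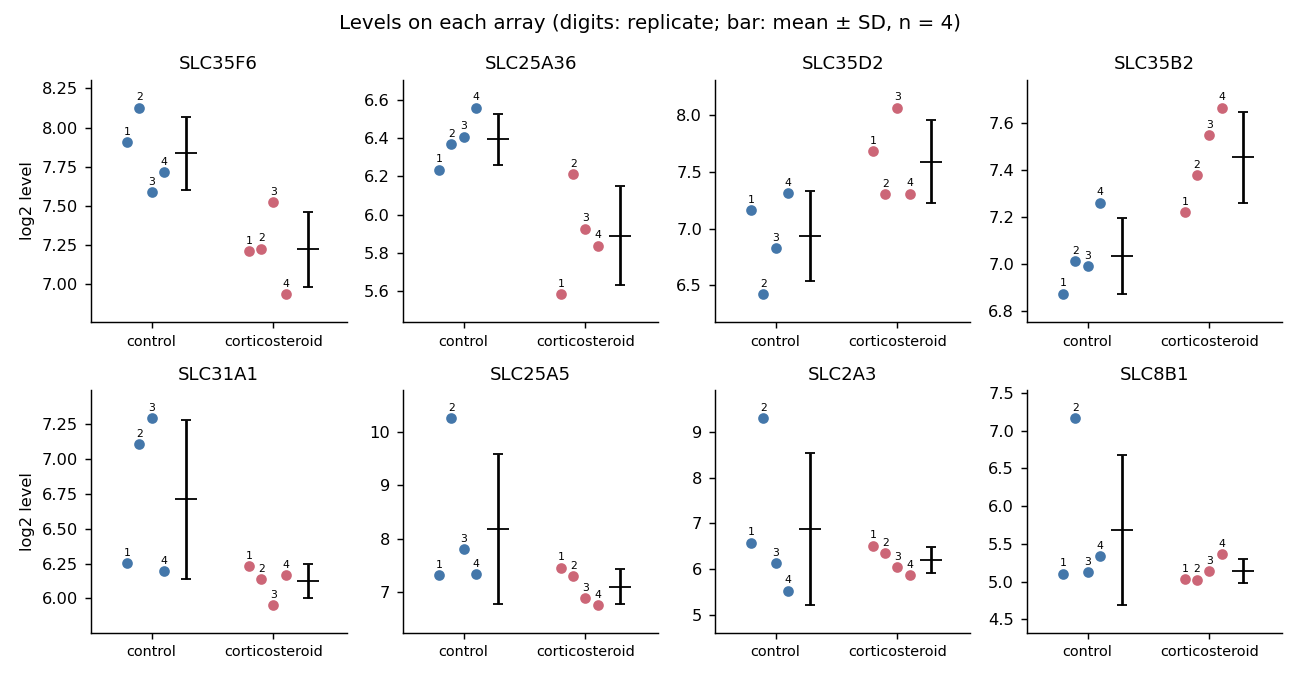
Log2 level on each array (points, replicate number above each point; control blue, corticosteroid red) for 8 genes, with the mean and SD of each group beside the points (n = 4). The upper row and SLC31A1 are the 5 genes with an unadjusted p under 0.05; for SLC25A5, SLC2A3 and SLC8B1 control replicate 2 lies above every other array.

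Ion carriers set pH, volume and calcium, and none of the 7 had an unadjusted p under 0.05, against 9.17% of all genes tested. SLC8B1, the sodium-calcium exchanger of mitochondria, had levels of 5.11, 7.16, 5.13 and 5.34 in controls and 5.03, 5.03, 5.14 and 5.37 with corticosteroid. The difference of -0.54 (SE 0.41) was -0.05 without control replicate 2, and the gene passed the level of 5.27 only through its control mean. The potassium-chloride cotransporter SLC12A4 differed by 0.30 (SE 0.28). It was 0.52 without control replicate 2, 0.13 without control replicate 1, 0.16 without control replicate 4 and 0.15 without corticosteroid replicate 1. The sodium-proton exchanger SLC9A5 differed by 0.16 (SE 0.20), from 0.04 without corticosteroid replicate 4 and 0.06 without control replicate 2 to 0.26 without control replicate 1 and 0.29 without corticosteroid replicate 2. The anion exchanger SLC26A6 differed by 0.08 (SE 0.18), from -0.05 without control replicate 2 to 0.19 without control replicate 4.

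Of the 10 metal carriers, SLC31A1, the high-affinity copper importer, had an unadjusted p under 0.05, against 9.17% of all genes tested. Its levels were 6.25, 7.10, 7.29 and 6.19 in controls and 6.23, 6.14, 5.95 and 6.17 with corticosteroid. Control replicates 2 and 3 were high, and control replicates 1 and 4 lay at the level of the corticosteroid arrays. The difference was -0.59 (SE 0.26, unadjusted p = 0.0489, adjusted p = 0.524 in limma), its interval ending just below zero. The re-assignment moved its row. The related copper transporter SLC31A2 varied more within groups than between them, from 7.49 to 9.60 in controls and from 7.74 to 9.53 with corticosteroid. Its difference of -0.14 (SE 0.52) was positive without control replicate 3 or 4 or without corticosteroid replicate 2 or 4, and a second probe set differed by 0.17 (SE 0.45). The zinc importer SLC39A14 differed by -0.22 (SE 0.15) and the iron importer SLC11A2 by 0.22 (SE 0.18), which was 0.11 without control replicate 1 and 0.36 without control replicate 4. The zinc importer SLC39A1 differed by -0.09 (SE 0.21), from -0.19 without control replicate 4 to 0.09 without control replicate 2.

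The SLC35 family, mostly nucleotide sugar carriers, had 10 members among the 82 genes. Of these, 3 had an unadjusted p under 0.05, against 9.17% of all genes tested, and whether the family stands apart was not tested. SLC35F6, a protein of lysosomes and mitochondria described as a partner of SLC25A5, had the smallest p of all 82 genes. Its levels were 7.91, 8.13, 7.59 and 7.72 in controls and 7.21, 7.23, 7.52 and 6.94 with corticosteroid, and every corticosteroid array lay below every control array. The difference was -0.61 (SE 0.19, 95% interval -1.04 to -0.18, unadjusted p = 0.0102, adjusted p = 0.479 in limma) and ran from -0.71 to -0.51 when single arrays were left out. A second probe set of SLC35F6 differed by -0.50 (SE 0.17, adjusted p = 0.479 in limma), and its groups overlapped. The row of the first probe set was not moved by the re-assignment.

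SLC35D2, a Golgi carrier of UDP-sugars, had levels of 7.16, 6.42, 6.83 and 7.32 in controls and 7.68, 7.30, 8.06 and 7.31 with corticosteroid. The groups overlapped only where control replicate 4 met corticosteroid replicates 2 and 4. The difference was 0.66 (SE 0.25, unadjusted p = 0.0268, adjusted p = 0.482 in limma), and its row was among those re-assigned. SLC35B2, which brings the sulphate donor PAPS into the Golgi, had levels of 6.87, 7.01, 6.99 and 7.26 in controls and 7.22, 7.38, 7.55 and 7.66 with corticosteroid, again with control replicate 4 as the only overlap. The difference was 0.42 (SE 0.17, unadjusted p = 0.0318, adjusted p = 0.483 in limma). SLC35B1, a nucleotide carrier of the endoplasmic reticulum, differed by 0.17 (SE 0.18), or 0.08 without control replicate 2 and 0.26 without control replicate 1. SLC35F5 differed by 0.29 (SE 0.25), or 0.13 without either control replicate 1 or corticosteroid replicate 3, and its other probe sets by 0.36 (SE 0.26) and 0.49 (SE 0.30). The 10 SLC35 genes had a median difference of -0.01, with 5 means higher and 5 lower.

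Among the remaining carriers, chosen for description after their values were seen, the creatine transporter SLC6A8, which fills the phosphocreatine store of muscle, had levels of 8.64, 7.89, 9.65 and 8.46 in controls and 8.07, 8.53, 8.30 and 9.19 with corticosteroid. Its difference of -0.13 (SE 0.38) ran from -0.39 to 0.20 when single arrays were left out. The nucleoside transporter SLC29A1 had levels of 7.02, 6.81, 6.53 and 6.63 in controls and 7.54, 6.54, 7.51 and 7.25 with corticosteroid. Corticosteroid replicate 2 alone lay among the controls, and the difference was 0.46 (SE 0.24, adjusted p = 0.556 in limma). The choline transporter SLC44A2 differed by 0.15 (SE 0.33), and by -0.08 without control replicate 2. The lysosomal carrier SLC46A3 differed by 0.41 (SE 0.37), with corticosteroid replicate 3 at 7.62 and the other 7 arrays from 5.68 to 6.13.

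**Figure D4:**
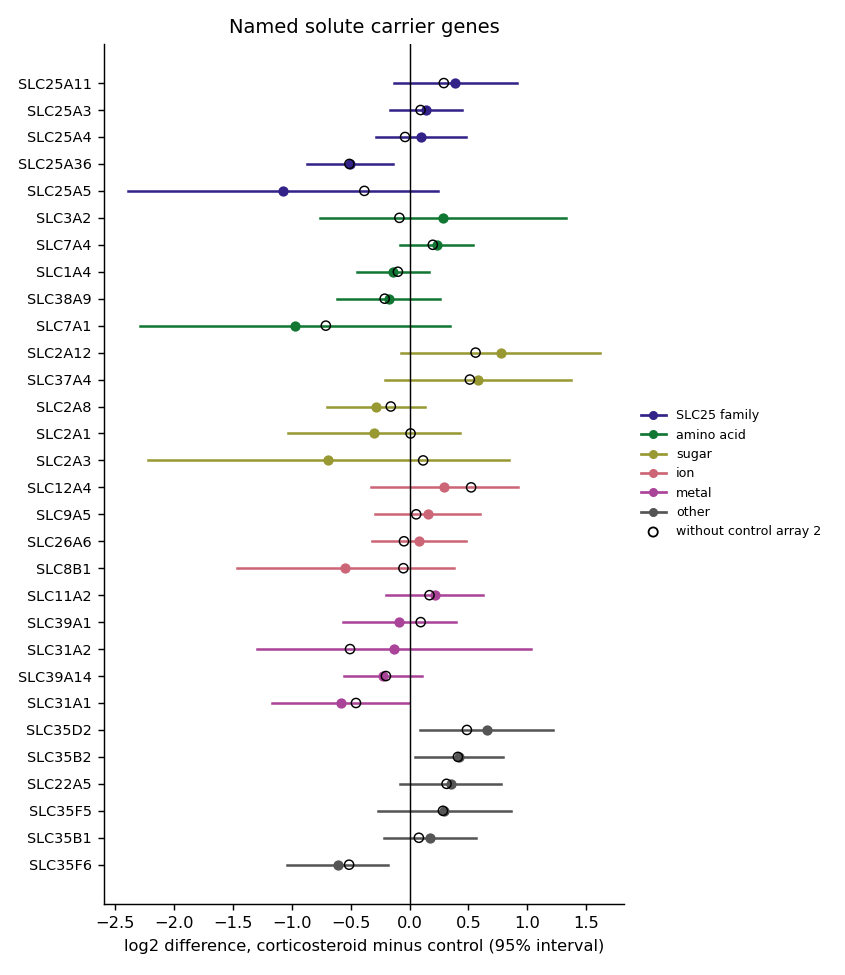
Log2 difference, corticosteroid minus control, of the 30 named genes with 95% intervals (filled points and lines, coloured by role), and the same difference without control array 2 (open circles). The intervals are not adjusted for the number of genes; those of SLC25A36, SLC35F6, SLC35D2, SLC35B2 and SLC31A1 lie on 1 side of zero, and for SLC2A3, SLC2A1, SLC25A4, SLC26A6, SLC39A1 and SLC3A2 the open circle lies on the other side of zero from the point.

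Control replicate 2 gave the highest level of the 8 arrays for 21 of the 82 genes and the lowest for 18. Corticosteroid replicate 4 gave the highest for 19 and the lowest for 10. Control replicate 2 lay more than 1 log2 unit above every other array for 5 of the 82 genes, SLC25A5, SLC2A3, SLC8B1, SLC25A24 and SLC39A7, and for 4.61% of all genes. Leaving it out turned the sign of the difference for 17 of the 82 genes. Of the 7 genes lower by over 0.5 with corticosteroid, 3 were still so without it (SLC7A1, SLC35F6 and SLC25A36). Of the 5 higher by over 0.5, 4 were still so, with SLC35D2 at 0.49.

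Macrophage markers were high on the same array. Of the 12 listed markers 9 were tested, and each had a lower mean in the treated group. LAPTM5 alone had an unadjusted p under 0.05 (-1.55, SE 0.60). Their summed signal, on the linear scale of the array, was 6538 on control replicate 2, from 1134 to 1754 on the other control arrays and from 801 to 1393 on the corticosteroid arrays. Single macrophage markers ranged from 4.94 to 10.91, all 9 highest on control replicate 2. The summed signals of the fibroblast (6627), smooth muscle (12389) and endothelial (2159) markers were also highest of the 8 arrays there. Those of the adipocyte, erythroid and Schwann cell markers were not. Not every single fibroblast or smooth muscle marker was highest on that array, and COL3A1 was lowest there (6.48). The means of the 5 neutrophil markers on the array lay below the level of 5.27. The phagocyte metal transporter SLC11A1, whose mean of 4.97 left it below the level, stood at 9.10 on control replicate 2 and from 4.19 to 4.65 on all other arrays. The part of RNA from macrophages, fibroblasts, smooth muscle or endothelium in the levels of SLC2A3, SLC25A5 and SLC8B1 was not tested. In whole muscle fewer cells of a type and less RNA per cell cannot be told apart. Of fibre type markers, the 8 fast-fibre ones tested all averaged higher in the treated group (3 with an unadjusted p under 0.05), and 9 of the 10 slow-fibre ones averaged lower (6 with an unadjusted p under 0.05), against 9.17% of all genes at that level. In limma 0 markers of either list had an adjusted p under 0.05. The summed signal of the slow-fibre markers ran from 23686 to 51059 in controls, highest on control replicate 3, and from 17708 to 27797 with corticosteroid. That of the fast-fibre markers ran from 59371 to 97534 in controls and from 94694 to 110593 with corticosteroid. The lowest fast-fibre control was replicate 2, and the other control arrays ran from 72495 to 97534. The part of fibre type in the carriers' levels was not tested either.

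Genes that work beside the carriers showed no change past the threshold. Of 15 mitochondrial gate genes tested, which include the outer membrane channels and the pyruvate carrier, 0 had an adjusted p under 0.05 in limma and 0 an unadjusted p under 0.05, against 9.17% of all genes tested. Of the 15, 8 means were higher and 7 lower. The pyruvate carrier subunit MPC1 differed by 0.24 (SE 0.13), with every corticosteroid array above every control array by a bare margin, and the mitochondrial serine carrier SFXN1 by -0.20 (SE 0.14), with every corticosteroid array below. Groups without overlap were found for 5.42% of all genes tested. Of 7 ion pump genes tested, 5 means were lower and 0 had an unadjusted p under 0.05. The sodium pump subunits ATP1B3 and ATP1B1 differed by -0.79 (SE 0.48) and 0.27 (SE 0.22). ATP1B3 stood at 10.51 on control replicate 2 and from 7.92 to 8.39 on all other arrays. Of 7 regulators of carriers tested, WNK1, a kinase that controls cation-chloride cotransporters, differed by -0.39 (SE 0.14, unadjusted p = 0.0224, adjusted p = 0.479 in limma), with no overlap between the groups. Its corticosteroid mean (5.21) lay below the level of 5.27, which WNK1 passed through its control arrays. TXNIP, which limits glucose uptake, differed by -0.35 (SE 0.27). Of 10 genes of the amino acid response, 5 means were higher and 5 lower. CEBPB differed by 0.62 (SE 0.27, unadjusted p = 0.0483, adjusted p = 0.524 in limma) and the serine synthesis enzyme PSPH by -1.03 (SE 0.50). PSPH had a corticosteroid mean of 4.85, below the level of 5.27, and was highest on control replicate 2 (7.27). ATF4, the transcription factor that drives this response, differed by -0.05 (SE 0.13).

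SLC2A4RG, the regulator that is not a carrier, had the highest difference of all 82 genes. Its levels were 7.78, 7.23, 6.80 and 8.11 in controls and 7.32, 8.59, 8.47 and 10.36 with corticosteroid. Corticosteroid replicate 4 stood well above all other arrays and replicate 1 lay among the controls. The difference was 1.21 (SE 0.57, adjusted p = 0.536 in limma), or 0.65 without corticosteroid replicate 4. The scaffold proteins SLC9A3R1 and SLC9A3R2 differed by 0.07 (SE 0.34) and 0.04 (SE 0.28). Among the 36 genes below the level, 2 had a control mean above it, SLC11A1 and the fructose transporter SLC2A5. SLC2A5 had levels of 6.72, 6.85, 4.43 and 4.32 in controls and of 4.33 to 4.89 with corticosteroid, so that control replicates 1 and 2 alone were above the rest.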

How the data were processed

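Each sample is 1 Affymetrix porcine array. The authors deposited log2 levels for 23999 probe sets. MAS5 is named per the submitters' processing notes, and how arrays were scaled to each other is not stated. Titles assign 4 arrays to control and 4 to corticosteroid. Corticosteroid values were re-assigned to the probe set IDs sorted with full stops ignored (0 tied IDs), an order found from these data, and control values kept their rows. Reporter probe sets (64) were left out. Symbols came from the platform annotation, and 81 of 82 matched a RefSeq gene by gene ID. No build is named, so no coordinates are printed, and sequences were not analysed here.

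The fit was limma 3.58.1 (R 4.3.3; lmFit on group, eBayes with an intensity trend) on the 14361 probe sets whose mean lay above the 40th percentile (5.27), Benjamini-Hochberg adjusted over all of them, threshold 0.05, and tested on simulated data. Tables used Python 3.11.15 and pandas 2.3.3. The number of arrays limits the precision: the median standard error over probe sets was 0.219 log2 units.

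Members, role lists, pathway lists and markers were chosen with earlier results of these data known, and SLC2A4RG was moved to the associated proteins after the files were read. Named genes were, in each of 6 roles, the 3 of smallest p and the 2 of highest mean, members without overlap among the 10 smallest p, 8 fixed by name, and the 2 of smallest p in each pathway list. Other genes were described after their values were seen. Alternatives were a replicate block, quantile normalization, median centring, other filters, 16 added before log2, other variance models, array weights, averaged probe sets, other row orders and leaving out arrays. The check of pairing correlated deviations from group means of same-numbered arrays. The planned description of proteins and promoters was not run.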

Additional observations from a re-analysis of the deposited data

Results flagged for a closer look

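Of 60 groups of 4 arrays tested over the 30 named genes, 2 held an array far from the other 3, where chance flags about 1 group in 20. Both were control replicate 2. SLC25A5 stood at 10.25 there, and the next control array at 7.80. SLC8B1 stood at 7.16, and the next control array at 5.34.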

How the results depend on the processing

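With the re-assigned rows, 0 carriers had an adjusted p under 0.05 in limma under every alternative run (82 genes tested, except 41 at the 60th percentile filter and 51 with rows in place only), and 0 of all probe sets did, with 1 exception (1 probe set without control replicate 3). With rows as deposited, 5454 probe sets and 19 of the 73 carriers tested passed, 20 of 73 had an unadjusted p under 0.05 (7 higher, 13 lower; 27.4%, against 42.5% of all probe sets), 17 did not overlap (38.0% of all probe sets), and the median difference was -0.096 for all carriers and -0.080 for the other carriers. In that order SLC25A3 differed by -6.75, SLC25A36 by 1.53, SLC26A6 by -1.51, SLC2A1 by 1.15, SLC35B1 by -2.99, SLC35F5 by -2.27 and SLC3A2 by -0.67. A filter at the 60th percentile, which leaves 41 carriers, gave 3 at an unadjusted p under 0.05 (1 lower) and 1 without overlap, and left SLC37A4 as the only sugar carrier, so that the sugar value of 0.58 is that of 1 gene. Rows in place only (51 carriers) gave 2 genes (1 higher, 1 lower) and 1 without overlap. Quantile normalization gave 4 without overlap. Without control array 2 and corticosteroid array 4 there were 3 genes (1 lower) and 6 without overlap, and differences turned for SLC25A4 (-0.13), SLC26A6 (-0.022), SLC2A1 (0.00084), SLC2A3 (0.22), SLC39A1 (0.066) and SLC9A5 (-0.055). Array weights turned SLC25A4 (-0.013), SLC26A6 (-0.021) and SLC39A1 (0.023), and averaging probe sets turned SLC31A2 (0.019). Of 22 other probe sets of the 82 genes above the level, 15 had a difference of the same sign as the one used. Shares over all probe sets are not given here for the 60th percentile filter, rows in place only, quantile normalization or the fit without those arrays. In the limma fit described above, 9.49% of all probe sets had an unadjusted p under 0.05 and 5.56% did not overlap. The counts under these alternatives therefore do not set the carriers apart from other genes. Where an alternative's construction does not show it, the cause was not tested. Leaving out single arrays gave 2 to 11 genes at an unadjusted p under 0.05 (0 to 5 higher, 2 to 6 lower), 2 to 9 without overlap, 0 to 1 probe sets adjusted and a median of -0.034 to 0.042. Sign changes came for SLC25A4 (-0.038 to 0.18), SLC26A6 (-0.047 to 0.19), SLC2A1 (-0.53 to 0.0090), SLC2A3 (-1.14 to 0.12), SLC31A2 (-0.51 to 0.20), SLC39A1 (-0.19 to 0.095) and SLC3A2 (-0.086 to 0.54).

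Arrays of the same number are linked in their titles only by that number. Their deviations from the group means correlated at -0.246, 0.109, 0.105 and 0.053. Arrays of different number correlated at -0.315 to 0.268, a range that holds these values, so the check cannot decide whether arrays were paired. With a replicate block, 0 genes had an adjusted p under 0.05 and 5 an unadjusted p under 0.05 (3 higher, 2 lower). The share over all probe sets with the block is not given here.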

Other observations

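SLC23A2, a vitamin C transporter whose mean log2 level of 4.17 left it out, was singled out after its values were seen. Its levels were 4.16, 4.99, 4.44 and 4.45 in controls and 4.14, 3.54, 3.98 and 3.67 with corticosteroid. All corticosteroid arrays lay below all control arrays, with a difference of -0.68 (SE 0.19) in limma without a filter. Its row was among those re-assigned, and it lies at levels where a probe set is hard to tell from background.

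Markers of other cells, by the median log2 difference of those tested, stood at -0.05 for endothelium (7 genes), -0.55 for erythroid cells (3), 0.05 for adipocytes (4), 0.18 for fibroblasts (5), -0.29 for smooth muscle (5) and 0.22 for Schwann cells (2).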
